A study of Rattus norvegicus with 18 samples.

Results

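The effect of phenylephrine (PE) on the m6A peaks of H9c2 cells was examined by setting the 3 peak lists of the Model group against the 3 peak lists of the Control group. H9c2 is a rat myoblast line from embryonic heart that keeps dividing in culture. The labels call the cells wild-type cardiomyocytes, and nothing states that the 3 replicates of a group came from separate cultures, so p-values measure only the spread between these libraries. Control cells received no treatment and Model cells received 50 μM PE for 24 h. The remaining group of the series, given 2 mg/mL SYD (Shen-Yuan-Dan capsule) together with 50 μM PE for 24 h, was consulted only to see whether sites of interest were listed there as well. The 6 lists hold 24976 peaks, which were merged into 8586 sites in 4689 genes wherever peaks overlapped by 1 base or more, out of 9022 sites in 4846 genes over all 9 lists of the series. A site was taken as present in a library when the list of that library holds a peak there.

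m6A is a methyl group on adenosine that the METTL3 and METTL14 methyltransferases write on nascent mRNA, that FTO and ALKBH5 can remove, and that YTH and IGF2BP proteins read. It lies mostly in long internal exons and around stop codons, and it can shorten the life of an mRNA or change its splicing, export and translation. PE binds α1-adrenergic receptors, which signal through Gq, phospholipase C, protein kinase C, calcium and the MAPK cascade and are a standard way to make cultured heart cells grow. In MeRIP-seq, fragments bound by an anti-m6A antibody (IP) are compared with the fragments before capture (input), so a peak is an excess of IP over input reads. A site missing from a list was not called there, and the lists carry no RNA levels, so a change in m6A and a change in the amount of an mRNA cannot be told apart.

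Fewer peaks were listed after PE, but not beyond the spread of the replicates. The Control lists held 5556, 3629 and 4245 peaks and the Model lists 4476, 2883 and 4187, so that the groups overlapped and the Control mean was 1.16 times the Model mean (4477 ± 984 against 3849 ± 849, SD, n = 3 per group, two-sided exact permutation p = 0.5). With 3 libraries per group no such test can give a p under 0.1. At each replicate number the Control list was longer than the Model list. A pair of libraries stood apart. Control 1 had the longest list and 1103 sites that no other library held, against 190 to 549 such sites in the other 5 libraries, and Model 2 had the shortest list. Every peak carries a score, which is −log10 of the peak's p-value multiplied by 10 and starts at 20 in all 6 lists. The median score was 62.8, 50.8 and 56.4 in Control and 54.4, 48.7 and 52.4 in Model (exact permutation p = 0.3). Because the lists differ in length, all counts were also made with each list reduced to its 2883 highest scores, the length of the Model 2 list. The lowest score kept was then 59.65, 27.47 and 36.32 in Control and 38.97, 20.02 and 34.67 in Model, so this setting asks most of Control 1 and least of Model 2.

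Most sites did not separate untreated from PE-treated cells. Of the 8586 sites, 1424 (16.6%) were present in all 6 libraries, 3011 (35.1%) in 1 library, and 4942 in at least 1 library of each group. Scores reached 3100 in all 6 libraries at sites of Eif3a, a subunit of the translation initiation factor eIF3, of Hnrnpd and Hnrnpu, which bind nuclear RNA, of the nonmuscle myosin gene Myh9, of Plec, which links intermediate filaments to the membrane, and of Rrbp1, Ptms and Snrnp70. Sites of AABR07000398.1, AABR07063424.1 and LOC257642 reached 3100 as well, with a fold enrichment of IP over input of 222 to 2778. At the other sites with this score in all 6 libraries the fold was at most 117. Exactly 3100 recurred across these sites and libraries while the folds differed, so this score does not rank them. Myh9 and the listed copy Myh9l1 carried sites of the same lengths at this score, so their reads may not be assigned to one of them with certainty.

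Sites that every library of a group listed while the opposite group listed no peak were rare in both directions. There were 69 such sites in Control (0.804% of all sites), in 67 genes, and 15 in Model (0.175%), in 15 genes. They are called Control-held and Model-held below. With at least 2 libraries against none, 439 sites were on the Control side and 194 on the Model side. The balance moved with the setting. With a score of at least 50 in place of all peaks, 38 sites were Control-held and 6 Model-held. In the lists of equal length, which hold 5838 sites in 3528 genes, 29 sites were Control-held (0.497%) and 26 were Model-held (0.445%). Without Model 2 the full lists gave 102 Control-held and 121 Model-held sites, while leaving out any other single library kept more sites on the Control side. A Model-held site then needs a peak in fewer libraries, while a Control-held site still needs all Control libraries. The counts without Model 2 are thus not like for like.

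**Figure D1:**
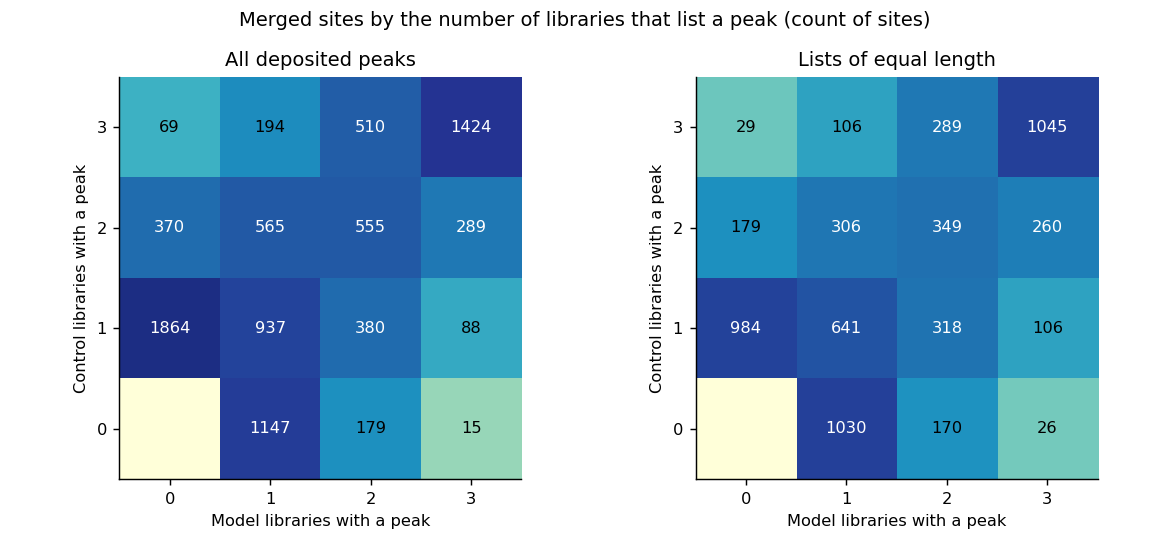
Number of merged sites by how many Control libraries (vertical axis, 0 to 3) and how many Model libraries (horizontal axis, 0 to 3) list a peak, for all deposited peaks (left) and for lists of 2883 peaks each (right); darker cells hold more sites. The upper left and lower right corners hold the 69 and 15 sites of the full lists and the 29 and 26 sites of the lists of equal length, beside 1424 and 1045 sites in all 6 libraries.

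Ranked by the lowest of their 3 scores, the Control-held sites of Tnc and Tet3 came first, while the highest single score, 971 in Control 1, was in Sptbn1. Tnc encodes tenascin C, a matrix glycoprotein that is made in the developing and injured heart. Its 1410-base site (chr5:79846787-79848196, rn6) had scores of 405, 63.2 and 127 in Control 1, 2 and 3, with a fold enrichment of IP over input of 14.6, 6.35 and 11.8, and no peak in any Model or SYD library. The only other Tnc site was a peak of score 20.1 in Control 1, so no Tnc peak was listed in any of the 3 Model libraries. Tnc was among the Control-held sites in the lists of equal length as well. Those lists are cut from the full lists, so a held site stays held there whenever its own 3 scores are kept. Being held in both is thus no separate support.

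Tet3, a dioxygenase that oxidizes 5-methylcytosine in DNA, had 6 sites, of which 4 had a peak in a Model library. Its Control-held site of 337 bases (chr4:115068840-115069176) had scores of 137, 61.1 and 69.4 in Control, while 2 SYD libraries listed it at 46.7 and 49.9. Its nearest neighbour (chr4:115066309-115068290) was present in all 6 libraries. There the scores were 20.2, 34.3 and 83.5 in Control and 275, 54.4 and 119 in Model, and the fold enrichment was 5.32, 5.90 and 7.04 against 13.7, 9.23 and 12.9, with every Model library above every Control library. These folds are not centred per library. At this site the scores of the groups overlapped, and the centred log2 fold did not pass the test described below (limma adjusted p = 0.704). The opposite order of the 2 neighbouring Tet3 sites is thus a description.

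Besides Tnc and Tet3, the sites of Nol7, Tmem243, Sptbn1, Igf1r and Ipo13 were Control-held both in the full lists and in the lists of equal length, which makes 7 of the 69. Igf1r, the receptor for insulin-like growth factor 1 and a driver of heart cell growth, had scores of 152, 40.8 and 141 at chr1:129206132-129206516. One weaker Igf1r site was shared by Control 3 and Model 1, with scores of 41.6 and 23.9. Sptbn1, a spectrin that supports the membrane, had scores of 971, 87.5 and 43.7 at its Control-held site (chr14:114557752-114558508), and a different site in Model 1 alone with a score of 183. The nucleolar protein gene Nol7 had 1 site, with scores of 152, 50.6 and 68.6. Ipo13, an import receptor, had scores of 78.9, 101 and 37.9 and was listed in all 3 SYD libraries at 28.8 to 46.2. Tmem243 had its Control-held site at 46.3 to 68.6 and another site, close by on chromosome 4, in Model 1 and Model 3 only, at 46.8 and 36.5.

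Most of the remaining Control-held sites were close to the lowest score that the lists admit. Over the 69 sites the lowest of the 3 scores had a median of 24.0 and was under 50 at 66 sites (95.7%). The share was 91.5% at sites in 2 Control and 1 Model libraries and 90.0% at sites in 1 Control and 2 Model libraries. It was 79.6% of all sites and 45.8% of the sites in all 6 libraries. SYD libraries listed 27 of the 69 sites (39.1%) at least once, beside 46.1% of all sites and 49.9% of the sites in 2 Control and 1 Model libraries. In 39 of the 69 cases another site of the same gene was listed in a Model library. The other 30 sites lie in genes with no Model peak at all.

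**Figure D2:**
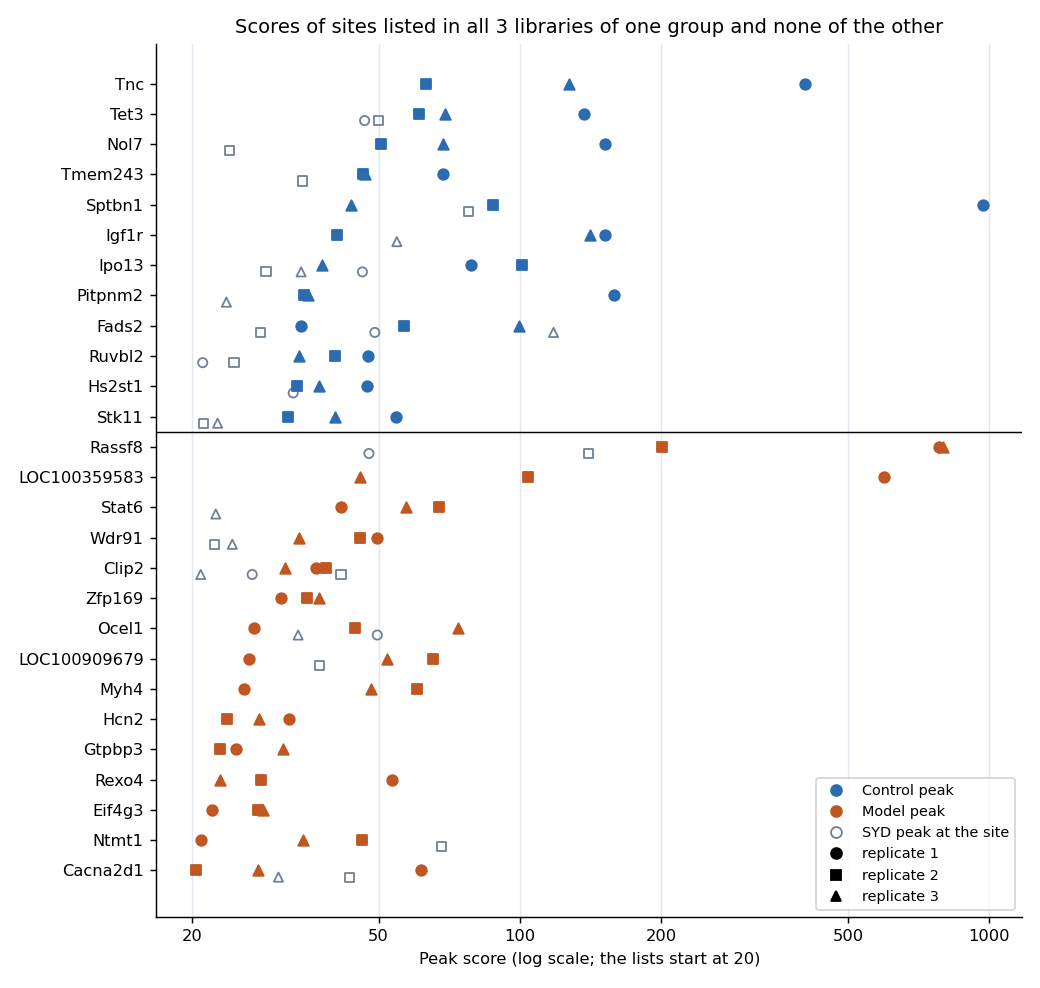
Peak score (horizontal log axis) at the 12 Control-held sites with the highest lowest score (upper part, blue) and at the 15 Model-held sites (lower part, orange), 1 row per site labelled by its gene; marker shapes are the replicates and open grey markers are SYD peaks at the same site. Rassf8, at 201 to 799, is the only site whose 3 scores all lie above 100; most markers lie between 20 and 100.

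Among the 67 genes with a Control-held site were a few receptors, ligands and matrix genes of growth signalling, beside many genes of other functions. Tgfbr2, the type II TGF-β receptor, had scores of 30.4, 113 and 94.6 at a 722-base site (chr8:124398520-124399241) that all 3 SYD libraries also listed, and 3 other sites with peaks in Model. Pdgfa, a ligand of PDGF receptors, had scores of 20.8, 22.0 and 41.5 at its Control-held site, and 3 of its 5 other sites had a peak in 1 or 2 Model libraries. Col4a2, a chain of basement membrane collagen, had 28.7, 47.9 and 69.3 at 1 of its 8 sites. Stk11 encodes LKB1, the kinase that activates AMPK, and its 84-base site (chr7:12447209-12447292) had scores of 54.6, 32.1 and 40.4 in Control and of 21.2 and 22.7 in 2 SYD libraries, while its second site was listed in all Control libraries and 2 Model libraries. The lipid enzyme genes Acaca (70.7, 23.8 and 51.5) and Fads2 (34.1, 56.7 and 99.4) had a single site each, and neither had a peak in Model. Acaca encodes the enzyme that makes malonyl-CoA and Fads2 a fatty acid desaturase, and Fads2 was listed in all 3 SYD libraries at 28.0 to 118.

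Chromatin and cytoskeletal genes had few Control-held sites each, 3 of 59 and 4 of 43 genes with a peak. Smarcc1, a core subunit of the SWI/SNF remodelling complex, had a 56-base Control-held site with scores of 65.2, 30.3 and 30.3 and 5 other sites with peaks in Model. Chd7, a chromatin remodeller, had scores of 72.1, 23.2 and 30.9, and Tbx18, a T-box factor of the developing heart, had 29.8, 23.6 and 53.8. Ank3, which anchors membrane proteins to spectrin, had 66.7, 25.1 and 34.6, and Tiam1, an activator of Rac, had 22.5, 25.4 and 105. Cttn, an actin-binding protein, was listed at 2 separate loci on chromosome 1, and its Control-held site of 55 bases lay at 1 of them. A site of the same length at the other locus (chr1:215276376-215276430) was listed in Control 1, with a score of 81.5, and in no other Control or Model library. It was also listed in 2 SYD libraries. Reads of the 2 loci may be shared, so where Cttn peaks were listed is uncertain. Abl1 and LOC100909750, which the lists describe as Abl1-like, each had a Control-held site of 273 bases on chromosome 3. Reads of such copies may be shared, so these 2 sites may be 1 observation. Nol12 and LOC498154 (C12h7orf50 in RefSeq) held 2 Control-held sites each.

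The Model-held sites were led by Rassf8, a gene of the Ras association domain family. Its site of 890 bases (chr4:180130006-180130895) had scores of 782, 201 and 799 and a fold enrichment of 10.9, 6.85 and 11.0 in Model 1, 2 and 3, with no Rassf8 peak in any Control library. Of the SYD libraries, which also received PE, 2 listed it at 47.7 and 140. It was the only one of the 15 sites whose lowest score was above 50, and it was Model-held in the lists of equal length too. LOC100359583 (Ptmal5 in RefSeq, prothymosin alpha-like) had scores of 598, 104 and 45.6 and Stat6, a transcription factor of cytokine signalling, had 41.6, 67.4 and 57.1 at a site of 61 bases. These 3 sites were Model-held under both settings, which restates that their own scores were high enough to be kept.

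The other 12 Model-held sites had lowest scores between 20.4 and 33.8. Among them, Cacna2d1, an auxiliary subunit of voltage-gated calcium channels, had scores of 61.7, 20.4 and 27.7 at its only site. Hcn2, a pacemaker channel, had 32.3, 23.8 and 27.8 and 2 other sites that both groups listed. The myosin heavy chain gene Myh4 had 25.8, 60.4 and 48.1 at 1 of its 16 sites, 5 of which were in all 6 libraries. Myosin heavy chain genes are close paralogs, so the origin of such reads is uncertain. Wdr91, Clip2, Zfp169, Ocel1, LOC100909679 (amphiphysin-like), Gtpbp3, Rexo4, Eif4g3 and Ntmt1 completed the group. SYD libraries listed 8 of the 15 sites (53.3%) at least once, beside 46.1% of all sites and 50.8% of the sites in 1 Control and 2 Model libraries.

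With lists of equal length, different sites came forward on both sides. Apart from the 7 and 3 sites named above, the 22 Control-held and 23 Model-held sites of this setting were listed in 1 to 3 libraries of the other group in the full lists. On the Control side, Ap1b1, a subunit of the AP-1 clathrin adaptor, had scores of 74.5, 92.2 and 75.6 in Control and of 32.5 in Model 3. Srp72 of the signal recognition particle had 63.6, 98.7 and 120 against 23.1 and 27.1 in Model 1 and Model 3. Eif2ak3, which encodes the endoplasmic reticulum stress kinase PERK, had 82.2, 57.8 and 61.9 against 33.9 in Model 3. Cep250, Tap1, Tmod3 and Rtf1 were further Control-held sites of this setting. Low Model scores at these sites are largely set by the rule, which leaves out Model peaks under the score kept for each list.

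The same limit holds on the Model side of the lists of equal length, where the values are a description. Man1c1, a Golgi mannosidase, had scores of 167, 67.7 and 72.1 in Model against 50.4, 23.9 and 23.1 in Control. App, the amyloid precursor protein gene, had 53.0, 43.4 and 56.3 against 26.2 and 35.7 in Control 2 and Control 3, and the histone demethylase gene Kdm4a had 46.2, 45.5 and 66.5 against 26.1 in Control 3. Zmynd8, Tlk1, Ncoa5 and RGD1561662 (C9h6orf132 in RefSeq) were also among them. Of the 26 sites, Man1c1, Znhit1 and Smarcc2 were listed in all 3 Control libraries of the full lists. Ncoa5 stood on both sides, with 1 Control-held site in the full lists and another site that was Model-held in the lists of equal length.

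Counted by gene, 36 genes had a peak in every Control library and in no Model library (0.768% of the 4689 genes), and 12 genes the reverse (0.256%). In the lists of equal length both counts were 17 (0.482% and 0.482% of 3528 genes). In the full lists, the 10 on the Control side with the highest lowest scores were Tnc, Nol7, Ipo13, Fads2, Ruvbl2, Hs2st1, Nubp1, Endod1, Cd55 and Fut8. Ruvbl2 is an ATPase of chromatin remodelling complexes, with scores of 47.4, 40.4 and 33.8, and Cd55, which restrains complement, reached 64.7, 30.3 and 39.6. The first 10 of the 12 on the Model side of the full lists were Rassf8, LOC100359583, Stat6, Ralgds, Wdr91, Zfp169, Ocel1, Fam120a, Gtpbp3 and Cacna2d1. Ralgds, an exchange factor for the GTPase RalA, had scores of 77.0, 44.6 and 38.0 in Model. Ythdf1, a cytoplasmic m6A reader, was listed in all 3 Model libraries and in no Control library through 2 different sites, with best scores of 20.2, 23.4 and 71.6.

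Gene lists of the pathways that PE is known to act on had peaks in both groups in overlapping numbers. They were read against the share of all genes with a held site, which was 1.43% for Control and 0.32% for Model in the full lists and 0.822% and 0.737% in the lists of equal length. Of 40 genes of α1-adrenergic and Gq signalling, 16 had a peak, in 15, 11 and 12 cases in Control and in 12 cases in each Model library, and none had a held site. Gna11 and Gnaq, which encode the G protein α subunits that couple α1 receptors to phospholipase C, had peaks in all 6 libraries. The receptor genes Adra1a, Adra1b and Adra1d had no peak in any of the 6 lists. Of 40 genes of calcineurin, NFAT, MEF2 and hypertrophic transcription, 20 had a peak, in 16, 11 and 15 cases in Control and in 11, 8 and 11 in Model, with Igf1r as the only member with a held site. The hypertrophy marker genes Nppa, Nppb and Myh7 had no peak in any library of either group, which says nothing about their expression.

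Among immediate early genes, which respond to growth signals within minutes, 16 of 31 had a peak, in 13, 12 and 13 cases in Control and 12, 12 and 10 in Model. Jun, Junb, Jund, Ier5 and Klf4 were in all 6 libraries at the same site. The nuclear receptor gene Nr4a3 was Control-held in the lists of equal length, with scores of 60.7, 34.2 and 51.0 against 21.4 in Model 1. The MAPK list had peaks for 26 of 52 genes and no held site in either setting.

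For autophagy, 22 of 50 genes had a peak, in 15, 10 and 16 cases in Control and in 15, 7 and 14 in Model. Map1lc3b, the gene of the autophagosome protein LC3B, had scores of 391, 365 and 204 in Control and of 465, 197 and 219 in Model at chr19:53635475-53635614, and the groups overlapped. Epg5, a tether for the fusion of autophagosomes with lysosomes, was Control-held in the lists of equal length at 72.3, 50.2 and 80.2 against 36.8 and 31.6 in Model 1 and Model 3. No peak was listed for Becn1 or Sqstm1. Of the mTOR list, 26 of 54 genes had a peak, in 19, 14 and 14 cases in Control and 16, 11 and 19 in Model. Stk11, described above, was its 1 Control-held gene in the full lists (3.85%), and Rragd, a Rag GTPase that recruits mTORC1 to the lysosome, was Model-held in the lists of equal length, with scores of 49.8, 24.4 and 45.6 against 25.8 in Control 1. Mtor itself had 5 sites, present in 1 or 2 Control libraries and in Model 3 or in no Model library, with scores of 20.1 to 78.6. Tfeb, the master transcription factor of lysosomal genes, had 1 site, with 23.4 in Control 3 and 37.2 and 31.1 in Model 1 and Model 2.

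The m6A machinery had peaks on 13 of 31 listed genes, in 10, 7 and 11 cases in Control and in 11, 7 and 10 in Model. All 6 libraries listed Alkbh5, an eraser, Zc3h13, which belongs to the writer complex, and the reader genes Fmr1, Igf2bp1 and Ythdc1, and Mettl3 had no peak in any. The muscle structure list (17 of 60 genes with a peak) had Myh4 as its only gene with a held site. The cardiac list (11 of 28) had Tbx18 on the Control side and Hcn2 on the Model side. Of the cardiac list, 5 genes, Tnnt2, Hand2 and Gata6 among them, had peaks in all 6 libraries, while Gata4 and Mef2c had a peak in 1 library each. The skeletal myoblast list had peaks on 7 of 24 genes, in 7, 3 and 5 cases in Control and 5, 3 and 5 in Model, with Six4 in all 6 libraries. Of 27 markers of other cell types, Krt8 alone had a peak, in Control 1 and Control 3.

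In some lists the share of genes with a Control-held site was above the 1.43% of all genes, on few genes. The lists were chosen with earlier results of these data known, and genes with many sites can be counted more easily. These shares are therefore a description and no test of function. The cytoskeletal list had 4 of 43 genes with a Control-held site (9.3%: Ank3, Cttn, Sptbn1 and Tiam1) and 1 with a Model-held site (Clip2), and in the lists of equal length 1 (Sptbn1) and 2 (Plec and Pxn). The growth factor and receptor kinase list had 2 of 15 (13.3%: Igf1r and Pdgfa), the lipid list 2 of 21 (9.52%: Acaca and Fads2), the matrix list 3 of 38 (7.89%: Col4a2, Tgfbr2 and Tnc) and the chromatin list 3 of 59 (5.08%: Chd7, Smarcc1 and Tet3). Of the 24 lists, Notch signalling in the full lists had more genes with a peak in every Control library (16, 14 and 12) than in any Model library (11, 10 and 9). In the lists of equal length this held for the growth factor and receptor kinase list (9, 7 and 8 against 4, 3 and 6) and for the unfolded protein and oxidative stress list (14, 13 and 12 against 11, 11 and 10), and Notch signalling overlapped (12, 12 and 9 against 10, 10 and 9). No list stood higher in all Model libraries under either setting. The exact permutation p was 0.1 for each separation, the smallest these group sizes allow, and was not adjusted for the 24 lists. Over all genes, the full lists held 3507, 2427 and 2762 genes with a peak in Control and 2943, 2037 and 2705 in Model. Those of equal length held 2060, 2000 and 1991 genes in Control against 2062, 2037 and 2008 in Model.

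**Figure D3:**
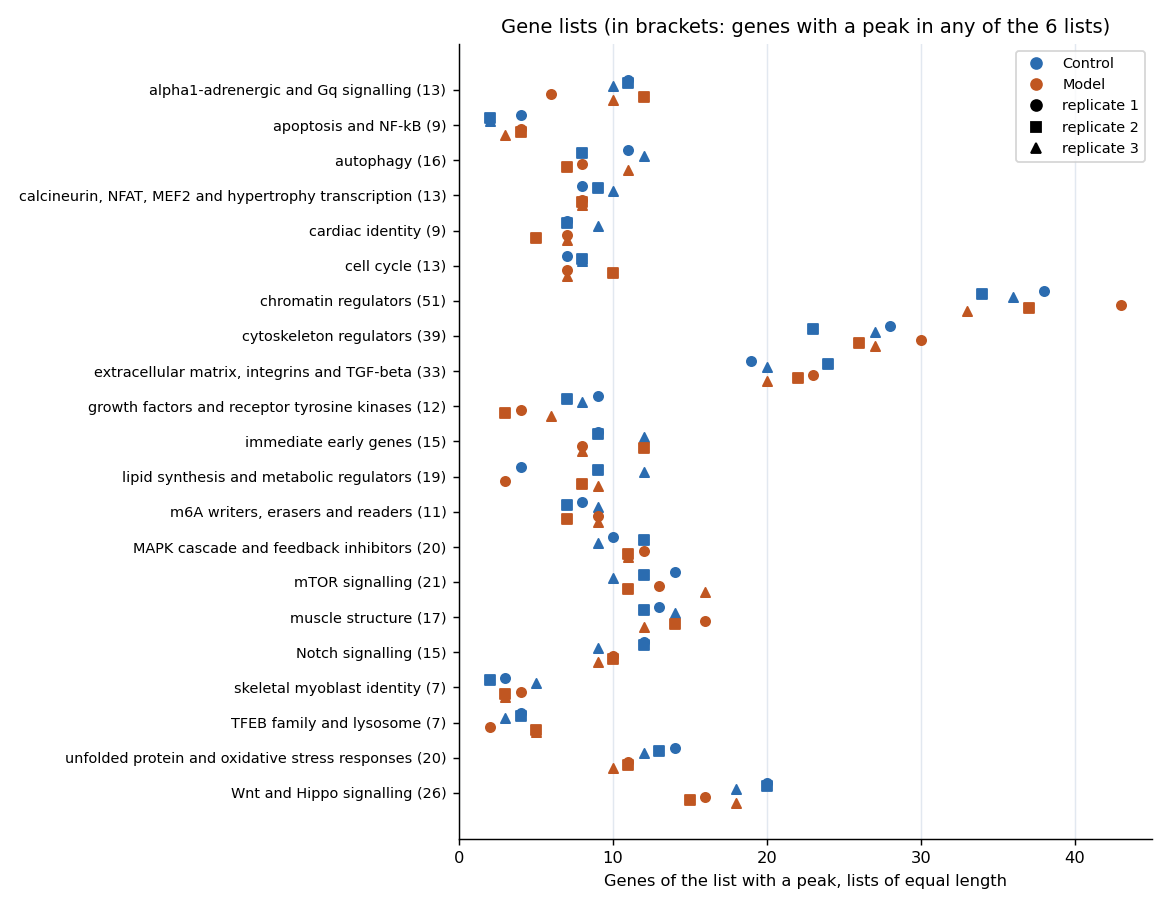
Genes of each list with a peak (horizontal axis, number of genes) in the lists of equal length, for Control (blue) and Model (orange) libraries with 1 marker shape per replicate; lists with at least 5 such genes are shown and the number in brackets is the genes with a peak in any of the 6 libraries. The 2 groups are apart only for growth factors and receptor tyrosine kinases (7 to 9 against 3 to 6) and for unfolded protein and oxidative stress responses (12 to 14 against 10 to 11).

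The functional terms deposited with the peaks differed in balance between the settings. Of 372 pathway, cell component and molecular function terms with at least 20 genes, 5 (1.34%) had more genes with a peak in every Control library than in any Model library of the full lists, and 0 (0.0%) the reverse. In the lists of equal length 8 terms (2.15%) stood higher in Control and 10 (2.69%) higher in Model. Phosphatase binding was on the Control side in both settings, with 20, 16 and 18 genes in Control and 14, 12 and 15 in Model in the full lists and 15, 13 and 14 against 12, 12 and 12 in those of equal length. Actin binding had 60 genes in each Control library and 58, 52 and 56 in Model in the lists of equal length, and the widest gap on the Model side was the chemokine signaling pathway, with 17, 16 and 19 against 20, 25 and 24. The terms are named here for their values, and many of them share genes. For the adrenergic signaling pathway of cardiomyocytes the equal lists gave 28, 27 and 28 genes in Control and 27, 28 and 28 in Model.

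At the 1424 sites of all 6 libraries the strength of enrichment could be compared directly. No site passed the test. The log2 fold enrichment, centred on the median of each library, was tested by limma with Benjamini-Hochberg adjustment over all 1424 sites, and 0 sites were higher (0.0%) and 0 lower in Model (0.0%) at an adjusted p under 0.05. At an unadjusted p under 0.05 there were 23 higher (1.62%) and 31 lower (2.18%), and without centring, which shifts the median difference from 0.014 to 0.203, 64 higher and 7 lower. The standard deviation among replicates was 0.36 on the log2 scale in Control and 0.35 in Model. Before centring, the median fold at these sites was 11.1, 11.4 and 14.1 in Control and 15.8, 11.4 and 14.8 in Model (exact permutation p = 0.3).

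The sites with the smallest p are given as values, since all had an adjusted p of 0.704 or more. In Tnnt2, the gene of cardiac troponin T, the centred log2 fold of a 95-base site (chr13:52662996-52663090) was 1.28, 0.98 and 0.63 in Control and −0.48, −0.15 and 0.41 in Model, a difference of −1.04 ± 0.28 (SE, limma adjusted p = 0.704). The Model values were all below the Control values, which was so at 56 of the 1424 sites, while at 46 sites they were all above. A second Tnnt2 site differed by 0.09 ± 0.23. In Ksr1, a scaffold of the RAF, MEK and ERK kinases, the values were 0.16, 0.82 and 0.70 against −0.48, −0.92 and 0.03, and in Bin1, a membrane-bending protein of muscle T-tubules, they were 0.52, 1.66 and 1.29 against −0.23, −0.37 and 0.63. The groups did not overlap for Ksr1 and overlapped for Bin1. Cdk16, Phc1, Hdgf, Katnal1, Thop1, Ankrd13c and LOC100362453 (Ppp2cal1 in RefSeq) were the other 7 on this side.

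On the side of higher values in Model, Ttll12 led with −0.67, −0.39 and −0.94 in Control against 0.02, 0.53 and 0.22 in Model (difference 0.92 ± 0.25, limma adjusted p = 0.704). Ppp3r1 encodes the regulatory subunit of calcineurin, the phosphatase that acts on NFAT, and its site (chr14:100322602-100322946) had −0.60, −0.36 and −0.62 against 0.05, 0.58 and 0.07 (difference 0.76 ± 0.24, limma adjusted p = 0.822). The calcineurin catalytic subunit Ppp3ca differed by 0.02 ± 0.23. Ddhd1, Tet3, Sart3, Setd1b, Nop14, Fbxl17, Rcor2l1 and LOC100361259 were the other 8, with differences of 0.68 to 1.01. Sart3, a factor for recycling of spliceosomal RNA, had 1.16, 1.30 and 1.23 against 1.83, 2.21 and 1.86 at this site, while another Sart3 site was Control-held in the lists of equal length, with scores of 108, 31.1 and 44.0 against 30.5 in Model 3. The differences of the α1-adrenergic list ran from −0.38 to 0.47 over 8 sites with a median of −0.10, and those of the muscle structure list from −1.04 to 0.24 over 24 sites with a median of −0.08, beside a median of 0.01 for all sites.

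**Figure D4:**
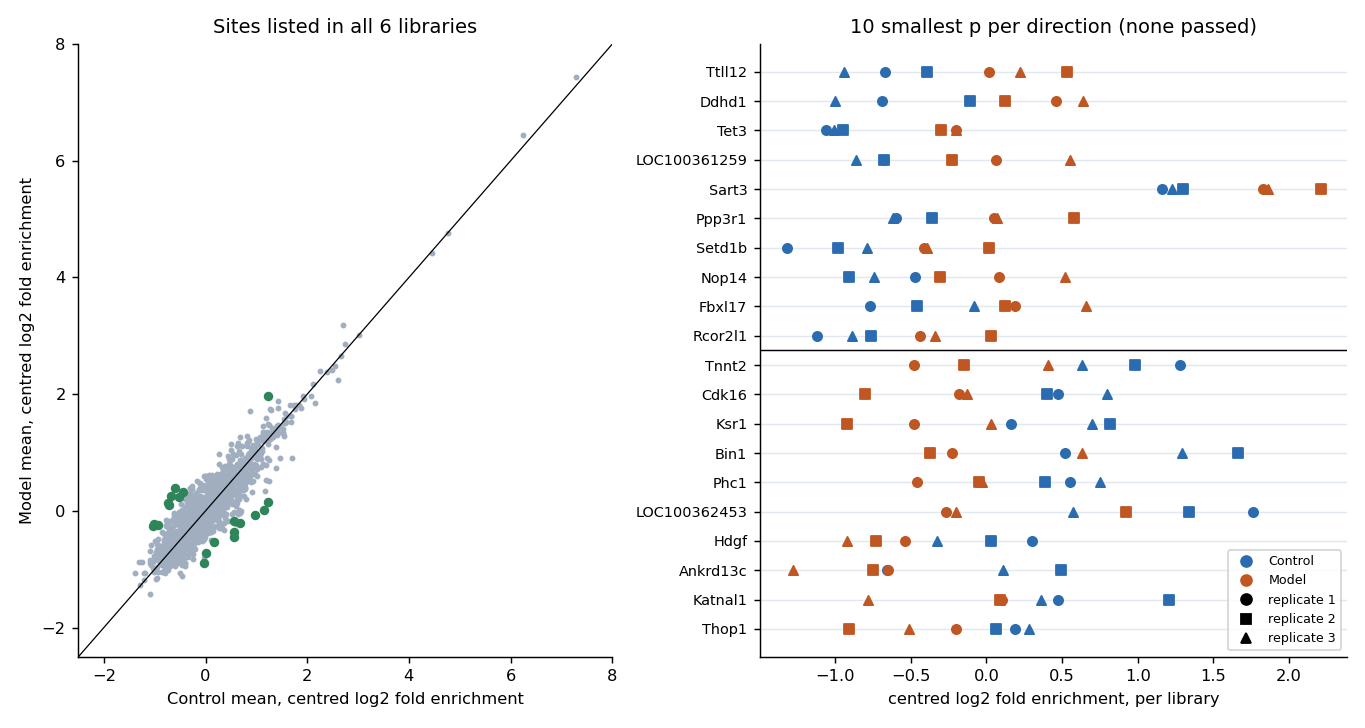
Left, mean centred log2 fold enrichment of the Control libraries (horizontal) and the Model libraries (vertical) at the 1424 sites of all 6 libraries, with the line of equality and the 20 sites of the right panel in green. Right, centred log2 fold of each library (Control blue, Model orange, shapes for replicates) at the 10 sites with the smallest p in each direction; none passed at an adjusted p under 0.05, and the smallest adjusted p was 0.704.

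The groups overlapped in peak length as well. The median length was 283, 252 and 261 bases in Control and 285, 261 and 267 in Model, a difference of 5.67 bases (exact permutation p = 0.6), and in the lists of equal length the Model mean of the medians was lower by 15.3 bases (308.0 ± 54.4 against 292.7 ± 29.7, n = 3 per group, exact permutation p = 0.8). Lengths recurred exactly between libraries. Of all peaks, 74.6% had the same start and end as a peak of another of the 6 lists, and 1195 of the 1424 common sites (83.9%) had the same bounds in all 6, so that most of these sites could not differ in length. Peaks under 100 bases made up 9.23% ± 0.451 of the Control lists and 8.74% ± 0.191 of the Model lists, and peaks of 1000 bases or more 12.9% ± 1.85 and 12.8% ± 1.5 (SD, n = 3 per group, exact permutation p = 0.2 and 0.9).

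**Figure D5:**
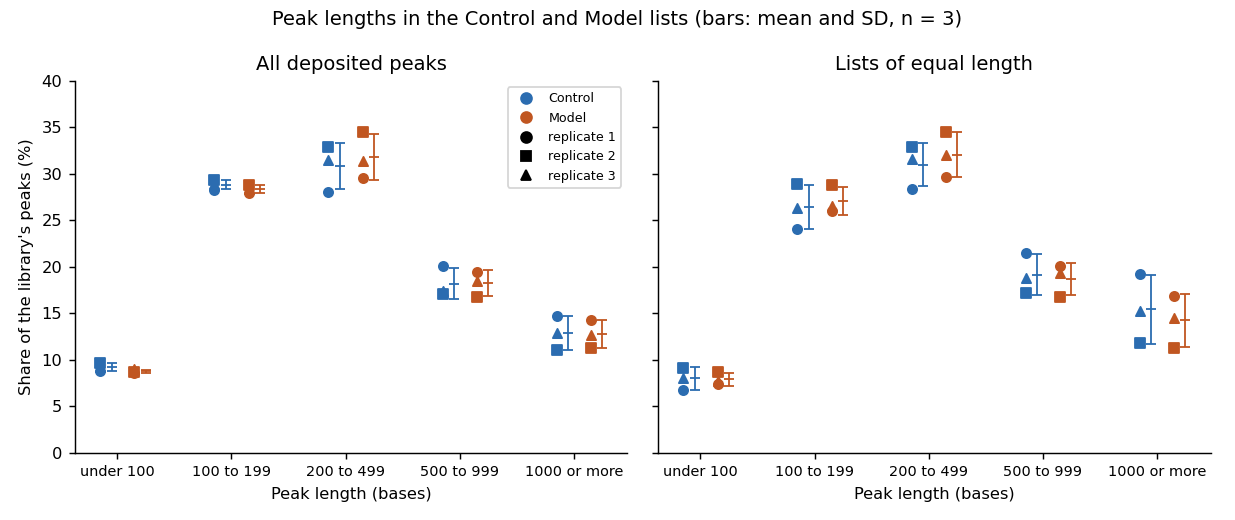
Share of the peaks of each library (vertical axis, %) by peak length class in bases, for all deposited peaks (left) and lists of equal length (right); markers are libraries by replicate and bars give the mean and SD (n = 3 per group). Control and Model overlap in each class.

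Of the 1424 sites of all 6 libraries, 1195 had the same length throughout and could count on neither side. Among the rest, 7 peaks were longer in every Model library than in every Control library (0.492% of 1424) and 3 were shorter (0.211% of 1424). The longer ones were in Ppp1r26, Fbxo46, Emx2, Ogfr, Cdk16, Map1lc3b and Sart3, and the shorter ones in Speg, Arid3a and LOC100909655. Speg encodes a kinase of the striated muscle triad, and its peak (chr9:82617919-82619341) spanned 1110, 1292 and 1326 bases in Control and 1084, 1035 and 965 in Model. The Map1lc3b peak spanned 98, 97 and 94 bases against 100, 105 and 140. For Cdk16, whose peak spanned 151, 219 and 212 bases in Control and 226, 244 and 244 in Model, the fold enrichment ran the other way, with the values of 0.47, 0.40 and 0.80 on the centred log2 scale in Control above the −0.18, −0.80 and −0.13 in Model. Among the sites held by 1 group, the median length was 273 bases at the 69 Control-held and 380 bases at the 15 Model-held sites, with quartiles of 149 to 620 and 121 to 681, beside 247 bases over all sites. The median was 256 bases at sites in 2 Control and 1 Model libraries and 267.5 at sites in 1 Control and 2 Model libraries. At sites in 1 library it was 207 bases.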

How the data were processed

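RNA of 3 Control, 3 Model and 3 SYD samples was split into IP and input libraries. Following the study's methods and the submitters' processing notes, reads were trimmed with cutadapt 1.9.3, aligned to rn6 with HISAT2 2.0.4 and turned by the authors into MACS peaks for each replicate separately, and peaks on mRNA were kept. Each deposited peak has a score (−log10 of the p-value, multiplied by 10), a fold enrichment, which is the ratio of IP over input, and a length. Calls depend on depth and RNA abundance, neither of which the lists give, so a missing peak is not missing m6A. The deposited FDR is 100 for all peaks and was not used, and the biological process terms were not used here. Columns of no sample left out numbered 0. No exon or UTR is given, since no rn6 annotation was used.

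Peaks of the 6 lists that overlapped by 1 base or more were merged into sites, and coordinates are 1-based. Presence was counted in the full lists and in each list's 2883 highest scores. Library values were compared by two-sided exact permutation tests. Fold enrichment at sites in all 6 libraries was compared on the log2 scale, centred per library, with limma 3.58.1 (R 4.3.3) and Benjamini-Hochberg adjustment. Python 3.11.15 with numpy 2.4.6 and pandas 2.3.3 was used, and the scripts were tested on simulated data. Named sites were the held sites ranked by their lowest score, the 10 smallest p per direction, and members of 24 gene lists (1067 symbols, 459 with a peak). Sites, lists and comparisons were chosen with earlier results of these data known. Alternatives were a score minimum of 50, a 50% overlap, sites merged over 9 lists, genes in place of sites, a replicate block, other scalings of the fold, and leaving out each library.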

Additional observations from a re-analysis of the deposited data

How the results depend on the processing

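The number of Control-held sites, 69 in the full lists, became 29 in lists of equal length, 38 with scores of at least 50, 439 with at least 2 libraries against none and 36 when genes were counted. The 15 Model-held sites became 26, 6, 194 and, for genes, 12. Asking for a 50% overlap or merging over 9 lists left both counts at 69 and 15. Leaving out 1 library asks less of a site and gave 102 to 219 Control-held and 28 to 121 Model-held sites. Only sites held by the reduced group then need a peak in fewer libraries, so the 2 sides are not like for like. Control-held sites numbered 160, 219 and 198 without Control 1, 2 and 3 and 150, 102 and 149 without Model 1, 2 and 3. Model-held sites numbered 68, 28 and 37 without Control 1, 2 and 3 and 46, 121 and 57 without Model 1, 2 and 3. Leaving out Model 2 alone turned the excess to Model (102 against 121), though Model-held sites then needed fewer libraries than Control-held sites. Leaving out Control 1 as well, chosen after seeing the data, gave 221 and 304. Of single sites, lists of equal length kept 7 of the 69 and 3 of the 15, and scores of at least 50 kept 3 and 1.

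The ratio of peak numbers stayed above 1, at 1.02 to 1.27 with 1 library left out. The difference in median length turned to −15.3 in lists of equal length, to −1.0 without Control 2 and to −1.33 without Model 1, in a range of −1.33 to 14.5. Limma called 0 sites in either direction under every alternative, with a smallest adjusted p of 0.199, without Model 3. Whether the replicate numbers pair the samples is not settled. The correlations of same-numbered deviations were low (0.224, 0.117 and 0.092), although each library correlated best with its own number. With the replicate block, limma called 0 sites higher and 0 lower, with 44 and 38 at an unadjusted p under 0.05, the ratio of peak numbers was 1.16 and the length difference 5.67 (exact sign-flip p = 0.25 for both, the smallest that 3 pairs allow). The depth of the libraries is not in the lists, so its part in which weak peaks were called was not tested.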
